A study of Homo sapiens with 6 samples.

Results

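The genes described here encode the heat shock proteins of the cytosol and the mitochondria, the factors that switch them on and the co-chaperones that serve them. They were taken by symbol from a table of gene levels in HT1080, an established human fibrosarcoma cell line. The 39 symbols gave 40 rows of 58735, because HSPA14 is listed under 2 gene identifiers, and 34 rows reached the mean level needed for a test. The KO group held 3 libraries of HT1080 cells in which GPR56, an adhesion G protein-coupled receptor encoded by ADGRG1, was targeted with CRISPR-Cas9, and the WT group held 3 libraries of WT HT1080 cells. Descriptions of all 6 samples carry the name of the solvent DMSO, with no dose or time beside it, and both genotypes grew in DMEM with fetal bovine serum. The study asked which mRNA levels differ when the receptor is lost; its title places the receptor in steroid sensing and in protection from ferroptosis, an iron-dependent death by lipid peroxidation. Neither the number of KO clones nor separate cultures are stated, so the p-values below measure the spread between libraries, which may be technical, and clone and genotype cannot be told apart.

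Heat shock proteins are chaperones that keep other proteins folded. When unfolded proteins accumulate, the transcription factor HSF1 is released from chaperones, forms trimers and binds heat shock elements, repeats of the letters nGAAn in alternating orientation, in front of chaperone genes. HSP70 proteins bind and release clients in a cycle that J-domain proteins start and nucleotide exchange factors (the HSP110 and BAG families) end, and HSP90 takes over near-native clients with its own co-chaperones, while mitochondria hold separate HSP70, HSP60 and HSP90 members.

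ADGRG1 was measured at 2.68, 2.54 and 2.58 FPKM (fragments per length of gene and per size of library) in the KO libraries, against 6.61, 6.07 and 6.87 FPKM in the WT libraries, so its mRNA was lower but present in every KO library. Depth was alike, at 16955111 to 17276269 reads in KO and 16410352 to 16461752 reads in WT, and 1 read in a gene of 1 kb stood for 0.0581 to 0.0602 FPKM. The first principal component, with 68.2% of the variance, separated the genotypes. GC content moved with genotype: the Spearman correlation of a library's deviations with gene GC content, across genes, was 0.23 to 0.47 in KO and -0.63 to -0.02 in WT. Of 12 mesenchymal markers, 8 averaged at least 1 FPKM (VIM, encoding vimentin, among them) while COL1A1, COL1A2, NT5E and THY1 did not, with summed levels of 2.36e+03 to 2.44e+03 FPKM in KO and 1.85e+03 to 2.02e+03 FPKM in WT. None of 7 epithelial markers, 6 blood markers or 5 hepatocyte markers averaged 1 FPKM, and CDH1, CLDN3, PTPRC, MS4A1 and ALB were listed at 0 in every library. Of 5 endothelial markers only TIE1 averaged 1 FPKM, with sums of 8.19 to 9.25 FPKM in KO and 12.0 to 14.8 FPKM in WT; the part of these marker levels in the results was not tested.

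More of the heat shock genes fell than rose in KO. Among those that fell were HSPA8, HSP90AA1 and HSP90AB1, the most abundant cytosolic HSP70 and HSP90 genes, and the stress-inducible HSPA1A and HSPA1B. The HSP90AB1 call was lost when any 1 library was left out. In limma's test on log2(FPKM + 1), 18 of the 34 tested rows fell (52.9%, where 22.4% of all 12000 tested genes fell) and 4 rose (11.8%, where 21.0% of all tested genes rose). The remaining 12 rows did not pass the adjusted threshold of 0.05; in either direction 64.7% of the members and 43.4% of all tested genes were called. The median log2 fold change of the tested members was -0.20, against -0.01 over all tested genes. After a correction of each library for gene GC content and length, 19 members were lower and 3 higher, and 18 of the 22 calls remained. Of all 12000 tested genes 2735 were lower and 2474 higher after that correction. Most changes were small: by the ratio of mean FPKM, 1 called member was at least 2-fold higher (HSPB8) and 4 were at least 2-fold lower (HSPA1A, HSPA1B, DNAJB4 and DNAJB14), and at 1.5-fold the numbers were 1 higher and 9 lower. Of all tested genes 3.13% were called at least 2-fold higher and 3.20% at least 2-fold lower, and 8.75% and 10.1% at 1.5-fold. The KO libraries lay wholly below the WT libraries for 19 of the 34 rows (55.9%, where this held for 28.3% of all tested genes) and wholly above for 5 (14.7%, where this held for 26.4%).

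**Figure D1:**
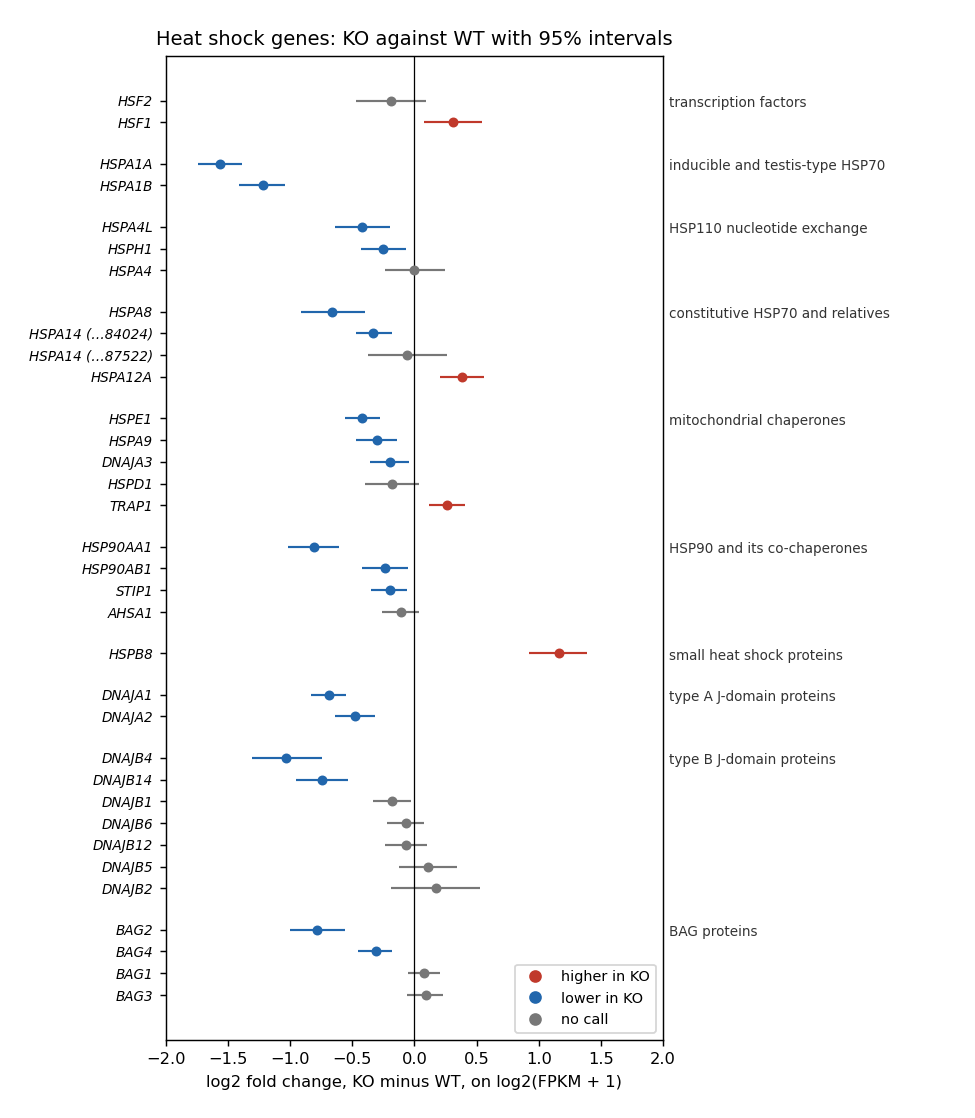
Log2 fold change (KO minus WT, on the log2(FPKM + 1) scale) of the 34 tested rows, with 95% confidence intervals from limma, grouped by role and coloured by call. HSPA1A and HSPA1B stand farthest to the left at -1.56 and -1.22, and HSPB8 farthest to the right at 1.16.

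Summed over all members, the level was 2472, 2631 and 2732 FPKM in the KO libraries, against 3356, 3614 and 3307 FPKM in the WT libraries, with no overlap. The means were 2612 ± 131 and 3425 ± 165 FPKM in KO and WT (SD, n = 3 each), a ratio of 0.762. As a share of all reads this was 1.05, 1.09 and 1.12% in KO, against 1.47, 1.56 and 1.41% in WT. HSPA8, HSP90AA1 and HSP90AB1 alone made up 64.2% of the sum in KO and 68.2% in WT, so the sum mostly follows these 3 genes. In bulk RNA a smaller share of cells making a transcript and less transcript per cell cannot be told apart.

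**Figure D2:**
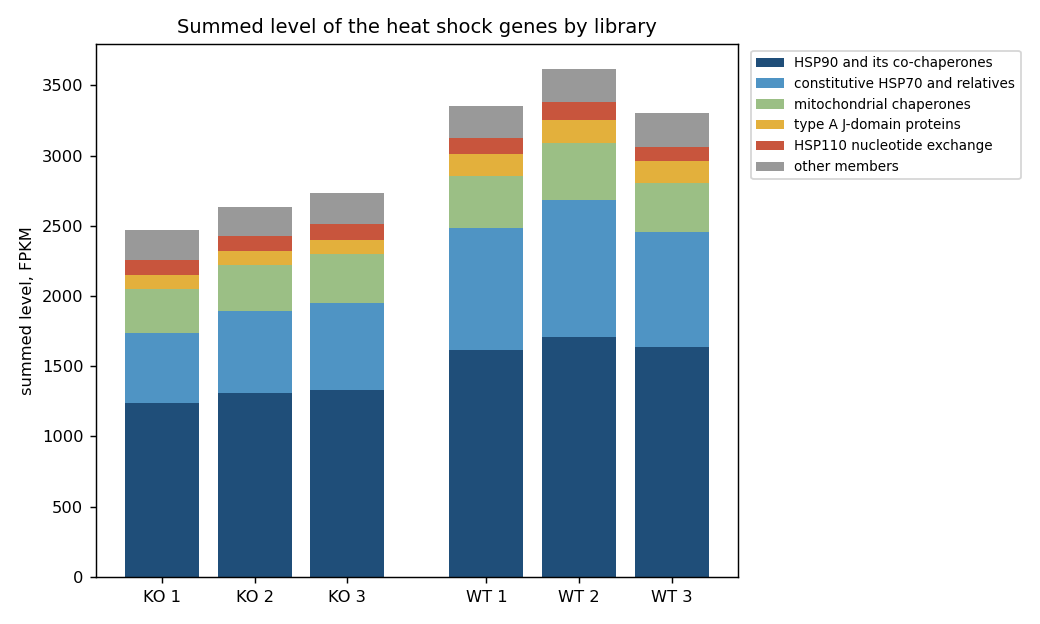
Summed FPKM of the members in each library, as stacked bars coloured by role that start at 0, with the 3 KO libraries left of the 3 WT libraries. The KO bars reach 2472 to 2732 FPKM and the WT bars 3307 to 3614 FPKM, and the HSP90 part alone is 1238 to 1332 FPKM in KO and 1613 to 1709 FPKM in WT.

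The sequences around the starts of the genes are shown because the heat shock element is the site that HSF1 reads. RefSeq windows on GRCh38.p14, from 250 bases before to 50 after an annotated start, were found for 35 of the 39 symbols, and none for BAG4, CRYAB, HSF1 and HSPA14. A 3-unit element, GAANNTTCNNGAA or its reverse complement TTCNNGAANNTTC, lay in a window of 7 of these 35 genes (20%), whereas 0.608% of all 27305 genes with a window had one. The shorter 2-unit form, GAANNTTC or TTCNNGAA, which every 3-unit element also contains, lay in windows of 19 of the 35 (54.3%) and of 16.2% of all genes. Of the 7 genes with a 3-unit element 4 fell, HSPD1 and DNAJB6 were not called and HSPA6 was too low to test. The HSP90AB1 call among these 4 was lost when any 1 library was left out. Among 12 genes with only the 2-unit form 7 fell, 1 rose, 1 was not called and 3 were not tested. The 16 genes with neither comprised 5 that fell, 2 that rose, 8 not called and 1 not tested. HSPE1, which fell, is among these 16. Its window starts at chr2:197500129 and so leaves out the HSPD1 elements (chr2:197500061-197500090), which lie farther in front of HSPE1. Across all tested genes 22.4% fell and 21.0% rose, and whether calls follow the elements was not tested. A match describes letters in the window and no binding site, and the exact search passes over elements with a changed letter.

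The 30-base stretches around the 3-unit elements of the 4 genes that fell, and of HSPD1, which was not called, are given 5′ to 3′ in the direction of the gene, with the element in capitals. HSPA8 and HSP90AB1 each have 2 elements, and the 2 of HSPD1 overlap. The DNAJA1 element lies after the annotated start, from base 4 on, and the others shown lie before their starts. The stretches of DNAJB6 and HSPA6 are not shown.
HSPA8 (chr11:123062345-123062374, minus strand): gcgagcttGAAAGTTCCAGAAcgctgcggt
HSPA8 (chr11:123062170-123062199, minus strand): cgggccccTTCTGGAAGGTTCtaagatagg
HSP90AA1 (chr14:102087111-102087140, minus strand): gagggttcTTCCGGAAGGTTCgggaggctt
HSP90AB1 (chr6:44247770-44247799, plus strand): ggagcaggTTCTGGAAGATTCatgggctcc
HSP90AB1 (chr6:44247823-44247852, plus strand): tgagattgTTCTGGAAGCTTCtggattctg
DNAJA1 (chr9:33025268-33025297, plus strand): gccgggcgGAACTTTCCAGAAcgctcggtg
HSPD1 (chr2:197500061-197500090, minus strand): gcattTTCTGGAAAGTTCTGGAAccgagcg

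HSPA1A and HSPA1B, the stress-inducible HSP70 genes, encode nearly the same protein from neighbouring copies. Both have a single 2-unit match, shown in capitals in the bases before their first annotated exon, with plus-strand coordinates on GRCh38.p14. Over the 250 bases before their RefSeq starts the copies were identical at 235 of 251 aligned columns (93.6%). The same match, read on the other strand, falls in the window of HSPA1L, which runs away from HSPA1A.
HSPA1A (chr6:31815293-31815463): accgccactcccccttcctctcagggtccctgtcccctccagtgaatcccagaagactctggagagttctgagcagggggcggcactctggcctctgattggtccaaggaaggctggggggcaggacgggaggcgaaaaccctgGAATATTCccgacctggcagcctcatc
HSPA1B (chr6:31827488-31827734): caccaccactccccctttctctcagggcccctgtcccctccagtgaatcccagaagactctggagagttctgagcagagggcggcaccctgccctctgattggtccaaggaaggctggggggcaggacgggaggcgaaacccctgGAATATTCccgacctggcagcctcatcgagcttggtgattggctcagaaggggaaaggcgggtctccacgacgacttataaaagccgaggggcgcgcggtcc

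These inducible genes had the largest decreases among the tested members on the log2(FPKM + 1) scale. HSPA1A (ENSG00000204389, chr6:31815464-31817946, plus strand) was at 4.16, 3.82 and 3.91 FPKM in KO, against 13.1, 13.0 and 15.0 FPKM in WT. Every KO library lay below every WT library, with means of 3.96 ± 0.18 and 13.7 ± 1.15 FPKM in KO and WT (SD, n = 3 each), 3.46-fold lower. The log2 fold change was -1.56 (SE 0.07, 95% confidence interval -1.74 to -1.39, adjusted p = 2.19e-05). HSPA1B (ENSG00000204388, chr6:31827735-31830255, plus strand) was at 5.20, 5.93 and 5.83 FPKM in KO, against 13.5, 14.3 and 15.8 FPKM in WT. It was 2.57-fold lower, with a log2 fold change of -1.22 (SE 0.08, adjusted p = 6.78e-05) and again no overlap. Because 71.3% of the 50-base stretches of HSPA1A transcripts and 73.5% of those of HSPA1B occur in another gene, reads may be split between the copies by a rule that no source used here gives. Their sum does not depend on a split between them: it was 9.36, 9.74 and 9.73 FPKM in KO, against 26.6, 27.2 and 30.8 FPKM in WT, a ratio of 0.341. A further annotated gene, AL671762.1, holds 33.2% of the stretches of HSPA1A and 35.3% of those of HSPA1B and averaged 0 FPKM. Reads dropped as shared would be missing from the sum as well. Tested genes within 5 Mb of HSPA1A had a median log2 fold change of 0.06 (129 genes).

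The related genes HSPA1L and HSPA2, known from the testis, and HSPA6, strictly stress-induced in human cells, stayed under a mean of 1 FPKM and were not tested. HSPA1L had 68 reads in the 3 KO libraries together and 106 in the 3 WT libraries. HSPA2 ran the other way, with 0.897 to 1.04 FPKM in KO and 0.675 to 0.728 FPKM in WT, without overlap and without a test. HSPA6 had 98 reads in KO and 90 in WT, and 45.5% of its 50-base stretches are shared with other genes. Its level did not exceed 1 FPKM in any library of either genotype.

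Constitutive HSP70 fell as well. HSPA8 (chr11:123057489-123063230, minus strand), which encodes HSC70, the housekeeping chaperone of the cytosol, was at 482, 563 and 602 FPKM in KO, against 848, 953 and 797 FPKM in WT. The highest KO library was below the lowest WT library, and the means of 549 ± 61.4 and 866 ± 79.7 FPKM in KO and WT (SD, n = 3 each) gave a 1.58-fold decrease. Its log2 fold change was -0.66 (SE 0.11, 95% confidence interval -0.91 to -0.40, adjusted p = 0.00305). In FPKM, which is per length, the inducible copies together stood at 0.0194, 0.0173 and 0.0162 of the HSPA8 level in KO, against 0.0313, 0.0286 and 0.0387 in WT. This difference of -0.89 in log2 ratio did not overlap between genotypes, with an exact two-sided permutation p of 0.10, the smallest that 3 against 3 libraries allow, and an adjusted p of 0.15 over the 3 ratios tested.

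Distant HSP70 relatives were mixed. HSPA12A, a remote HSP70 homologue, rose, with 2.64, 2.66 and 2.45 FPKM in KO, against 1.68, 1.88 and 1.69 FPKM in WT (log2 fold change 0.38, SE 0.07, adjusted p = 0.0061). HSPA14, which works with a J-domain partner at the ribosome, is listed as ENSG00000284024 and ENSG00000187522, whose exons share 460 bases on the same strand. The first fell, at 7.10, 7.69 and 7.83 FPKM in KO, against 9.48, 10.2 and 9.46 FPKM in WT (log2 fold change -0.33, adjusted p = 0.00571). The second averaged 8.88 FPKM in KO and 9.39 FPKM in WT with overlapping libraries (-0.06, 95% confidence interval -0.37 to 0.26, adjusted p = 0.758). The shared bases make up 9.34% of the exonic bases of the first row and 17.4% of those of the second. Most exonic bases of the row that fell, which counts among the 18 lower rows, thus lie outside the row that was not called. Without a stated rule for shared reads both HSPA14 rows are uncertain.

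Of the 3 HSP110 genes, whose products release ADP from HSP70, 2 fell (where 22.4% of all tested genes fell) and HSPA4 was not called. HSPH1 was at 31.7, 28.9 and 32.1 FPKM in KO, against 37.5, 39.3 and 34.0 FPKM in WT (log2 fold change -0.25, SE 0.07, adjusted p = 0.0317). HSPA4L was at 1.52, 1.58 and 1.74 FPKM in KO, against 2.27, 2.88 and 2.35 FPKM in WT (-0.42, SE 0.09, adjusted p = 0.0104). Neither gene's libraries overlapped between genotypes, but neither call remained after correction for GC content and length, where HSPH1 was at 0.06 (adjusted p = 0.257) and HSPA4L at -0.10 (adjusted p = 0.341); both have a GC content of 39.3%. The HSPH1 call was also lost in 5 of the 6 fits that left out 1 library. HSPA4 averaged 75.0 ± 5.64 FPKM in KO and 75.0 ± 9.50 FPKM in WT, a log2 fold change of 0.00 with a 95% confidence interval of -0.24 to 0.25. After the GC and length correction HSPA4 stood at 0.18 and was called higher in KO (adjusted p = 0.0430).

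**Figure D3:**
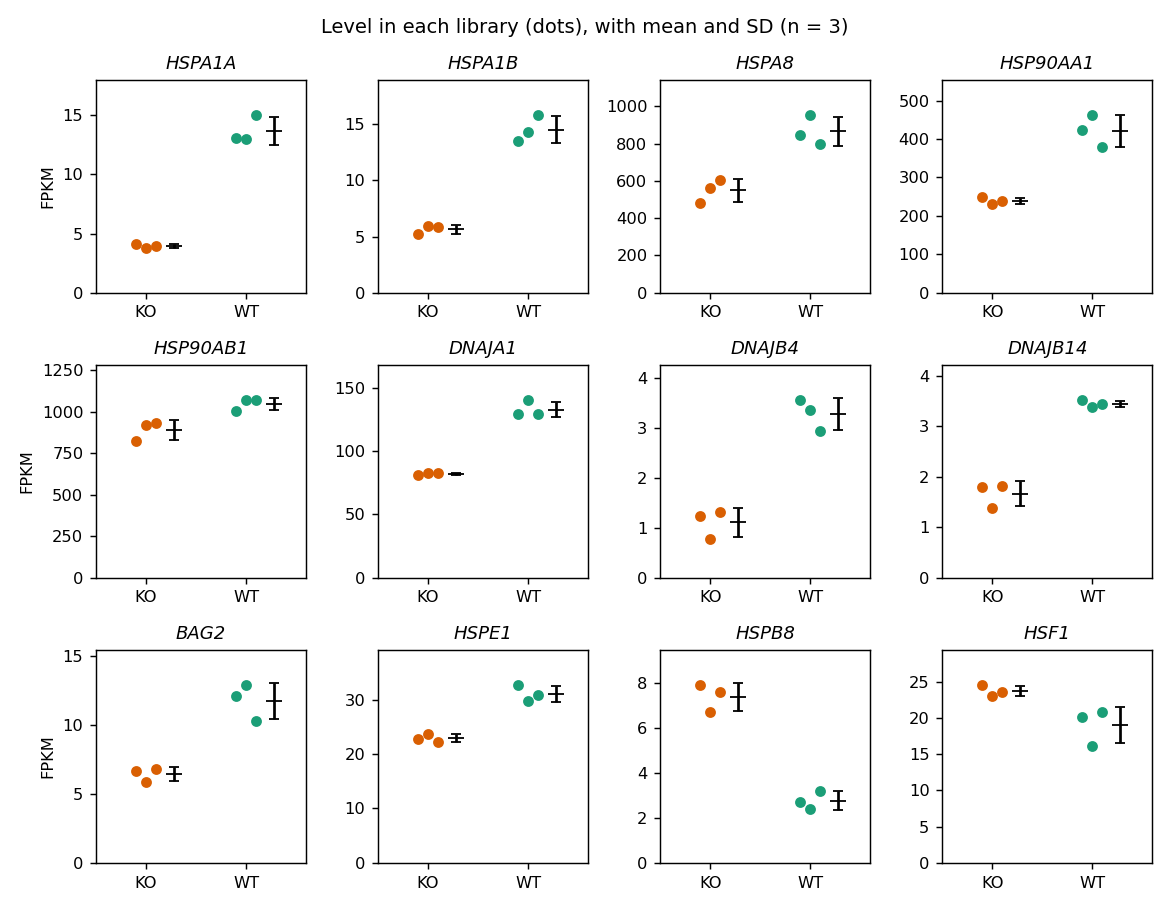
FPKM of 12 members in each library (dots), KO left of WT, with the mean and SD of 3 libraries on axes that start at 0. All 12 are called members, and members that were not called are left out. The KO and WT dots do not overlap for any of these genes. HSPB8 and HSF1 are higher in KO and the other 10 are lower. Of all tested genes, 26.4% had every KO library above every WT library and 28.3% had every KO library below.

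Of the 4 genes of HSP90 and its co-chaperones 3 fell (75.0%, where 22.4% of all tested genes fell), both cytosolic HSP90 genes among them. HSP90AA1 (chr14:102080738-102139699, minus strand), the stress-inducible form, was at 248, 231 and 238 FPKM in KO, against 424, 462 and 379 FPKM in WT. It was 1.76-fold lower without overlap, with a log2 fold change of -0.81 (SE 0.09, 95% confidence interval -1.02 to -0.61, adjusted p = 0.00049). HSP90AB1, the constitutive form, was at 821, 917 and 931 FPKM in KO, against 1007, 1068 and 1068 FPKM in WT (-0.24, SE 0.08, adjusted p = 0.0455). All 3 KO libraries were below the WT libraries for HSP90AB1 too, yet its call was lost when any 1 library was left out (adjusted p 0.0645 to 0.110). The HSP90AA1 to HSP90AB1 ratio of levels per length was 0.302, 0.252 and 0.256 in KO, against 0.421, 0.432 and 0.355 in WT, a log2 difference of -0.58 (exact two-sided permutation p = 0.10, adjusted p = 0.15 over 3 ratios).

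STIP1, also called HOP, which bridges HSP70 and HSP90, was at 80.1, 81.2 and 82.6 FPKM in KO, against 90.5, 91.8 and 99.2 FPKM in WT. It fell slightly (log2 fold change -0.20, SE 0.06, adjusted p = 0.0306), and that call remained in only 1 of the 6 fits that left out a library. AHSA1, which stimulates the HSP90 ATPase, averaged 84.1 ± 4.19 FPKM in KO and 90.9 ± 3.64 FPKM in WT and did not pass the test (-0.11, 95% confidence interval -0.26 to 0.04, adjusted p = 0.209). After the GC correction AHSA1 stood at -0.20 with an adjusted p of 0.0384.

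Among J-domain proteins, which hand clients to HSP70 and trigger its ATPase, both tested type A members of the cytosol fell. Across all tested genes 22.4% fell. DNAJA1 was at 81.3, 82.6 and 82.5 FPKM in KO, against 129, 140 and 129 FPKM in WT, 1.62-fold lower (log2 fold change -0.69, SE 0.06, adjusted p = 0.000222). DNAJA2 was at 16.3, 18.3 and 17.9 FPKM in KO, against 24.0, 26.0 and 24.2 FPKM in WT (-0.48, SE 0.07, adjusted p = 0.00157). The KO libraries lay below the WT libraries for both, and DNAJA2 stood at -0.29 after the GC correction, still called. The 19 tested genes within 5 Mb of DNAJA2 had a median log2 fold change of -0.46, close to its own, and the part of the region in that result was not tested. DNAJA4, a further type A gene, had 7 reads in KO and 7 in WT over 3 libraries each.

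Of the 7 type B members 2 fell (28.6%, near the 22.4% of all tested genes), and the other 5 were not called. After the GC correction 4 were lower, as were 2735 of all 12000 tested genes. DNAJB4, a cytosolic partner of HSP70, was at 1.23, 0.784 and 1.31 FPKM in KO, against 3.55, 3.35 and 2.92 FPKM in WT, 2.96-fold lower (log2 fold change -1.03, SE 0.12, adjusted p = 0.00073). DNAJB14, anchored in the endoplasmic reticulum membrane with its J-domain in the cytosol, was at 1.79, 1.39 and 1.82 FPKM in KO, against 3.52, 3.38 and 3.43 FPKM in WT (-0.74, SE 0.09, adjusted p = 0.00076). Neither gene's groups overlapped. These genes have low GC contents of 38.8% and 34.9%, and after the GC correction DNAJB4 stood at -0.74 and DNAJB14 at -0.32, both still called. The 17 tested neighbours of DNAJB4 within 5 Mb had a median of -0.43.

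DNAJB1, the main heat-induced HSP40 and a classical HSF1 target, was at 41.5, 41.5 and 43.2 FPKM in KO, against 44.6, 49.7 and 48.9 FPKM in WT. Its libraries did not overlap, but it missed the threshold (log2 fold change -0.18, 95% confidence interval -0.33 to -0.03, adjusted p = 0.0571). It passed after the GC correction (-0.32, adjusted p = 0.00541) and after quantile normalization (-0.23, adjusted p = 0.0174). DNAJB6, a suppressor of protein aggregation, averaged 0.949 times the WT level and DNAJB12, the membrane-anchored relative of DNAJB14, 0.948 times, with adjusted p-values of 0.399 and 0.477. After the GC correction DNAJB12 passed as lower in KO (-0.19, adjusted p = 0.0189). DNAJB2, known from neurons, and DNAJB5 had KO to WT ratios of 1.15 and 1.13 with overlapping libraries and adjusted p-values of 0.407 and 0.388.

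BAG proteins exchange the nucleotide of HSP70 and steer its clients, and 2 of the 4 fell (where 22.4% of all tested genes fell). BAG2, an inhibitor of the ubiquitin ligase CHIP, was at 6.64, 5.84 and 6.82 FPKM in KO, against 12.1, 12.9 and 10.3 FPKM in WT, 1.83-fold lower (log2 fold change -0.78, SE 0.09, adjusted p = 0.000823). With a GC content of 37.0%, BAG2 stood at -0.42 after the GC correction and was still called. Its exons overlap RAB23 on the opposite strand over 42.7% of their bases, and without a stated strand setting reads of the 2 genes cannot be told apart there. BAG4, a silencer of death receptors, was at 4.63, 4.63 and 4.41 FPKM in KO, against 6.06, 5.91 and 5.75 FPKM in WT (-0.31, SE 0.06, adjusted p = 0.00472). BAG1 and BAG3 did not pass: their log2 fold changes were 0.08 (95% confidence interval -0.05 to 0.21) and 0.09 (-0.06 to 0.23). BAG3, a heat-induced gene whose product works with HSPB8 in selective autophagy, was at 69.6, 66.2 and 70.8 FPKM in KO, against 62.5, 63.6 and 68.2 FPKM in WT.

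HSPB8, a small heat shock protein and the partner of BAG3, rose and was the only called member at least 1.5-fold higher. It (chr12:119178642-119221131, plus strand) was at 7.89, 6.69 and 7.58 FPKM in KO, against 2.71, 2.39 and 3.22 FPKM in WT. Each KO library was above the highest WT library, with means of 7.39 ± 0.62 and 2.77 ± 0.42 FPKM in KO and WT (SD, n = 3 each), a ratio of 2.66. The log2 fold change was 1.16 (SE 0.10, 95% confidence interval 0.92 to 1.39, adjusted p = 0.000214), and 1.06 after the GC correction. HSPB8 has a pair of 2-unit matches in its window, the upstream one being given in capitals with 30 bases on GRCh38.p14.
HSPB8 (chr12:119178832-119178861, plus strand): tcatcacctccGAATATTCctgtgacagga
The letters of that match are those found in HSPA1A and HSPA1B, which fell. The other small heat shock genes were near 0: HSPB1 had 12 reads in KO and 12 in WT over 3 libraries each, and CRYAB had 4 reads in KO and 0 in WT.

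**Figure D4:**
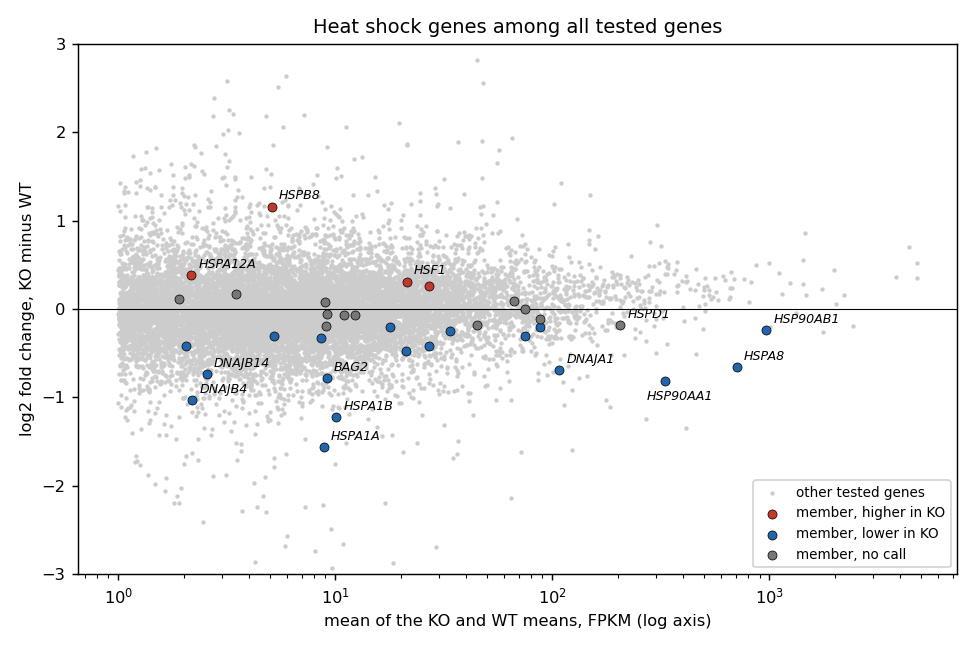
Log2 fold change (KO minus WT) against the mean FPKM of both genotypes (log axis) for the 12000 tested genes in grey, with the heat shock members coloured by call. The abundant members HSPA8 and HSP90AA1 lie at -0.66 and -0.81, and 9 other genes fall outside the plotted range of -3 to 3.

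Of the 5 mitochondrial chaperones 3 fell (where 22.4% of all tested genes fell), 1 rose (where 21.0% rose) and 1 was not called. Among these calls, that of DNAJA3 was lost when any 1 library was left out, and that of TRAP1 after the GC correction. HSPA9, the matrix HSP70 (mortalin), was at 64.6, 65.5 and 70.6 FPKM in KO, against 81.9, 88.1 and 78.6 FPKM in WT (log2 fold change -0.30, SE 0.07, adjusted p = 0.0106). HSPE1, the lid of the matrix chaperonin, was at 22.8, 23.8 and 22.2 FPKM in KO, against 32.6, 29.7 and 30.8 FPKM in WT (-0.42, SE 0.06, adjusted p = 0.00178). HSPD1, the barrel (HSP60), was at 181, 191 and 206 FPKM in KO, against 218, 242 and 195 FPKM in WT, and did not pass (-0.18, 95% confidence interval -0.40 to 0.04, adjusted p = 0.168). HSPD1 and HSPE1 share a promoter region and run in opposite directions, so the ratio of their levels tests whether they moved unequally. It was 7.94, 8.04 and 9.27 in KO, against 6.69, 8.17 and 6.34 in WT, overlapping (log2 difference 0.26, exact two-sided permutation p = 0.30). Of the exonic bases of HSPE1, 14.2% overlap HSPD1 on the opposite strand, and HSPD1 has the higher level, so reads there cannot be told apart.

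TRAP1, the mitochondrial HSP90, rose, at 29.0, 29.2 and 30.6 FPKM in KO, against 23.5, 23.9 and 26.2 FPKM in WT (log2 fold change 0.26, SE 0.06, adjusted p = 0.0134). With a GC content of 57.3%, it stood at 0.12 after the GC correction and was no longer called (adjusted p = 0.108); without WT replicate 1 the adjusted p was 0.0647. Its exons overlap DNASE1 on the opposite strand over 29.3% of their bases, where DNASE1 averaged 0.96 FPKM over all libraries. DNAJA3, the J-domain partner in the matrix, was at 17.6, 16.9 and 15.4 FPKM in KO, against 18.9, 18.6 and 20.1 FPKM in WT. Its adjusted p of 0.0494 (log2 fold change -0.20) did not remain under the threshold without any 1 library (0.0514 to 0.150).

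Of the 2 transcription factors HSF1 rose (as did 21.0% of all tested genes) and HSF2 was not called. HSF1, the main activator of the response, was at 24.5, 23.0 and 23.6 FPKM in KO, against 20.1, 16.1 and 20.8 FPKM in WT. It was higher in all 3 KO libraries, with means of 23.7 ± 0.741 and 19.0 ± 2.53 FPKM in KO and WT (SD, n = 3 each), and passed the test (log2 fold change 0.31, SE 0.10, adjusted p = 0.0377). That call was lost after the GC correction (0.10, adjusted p = 0.212; GC content 63.9%) and in 4 of 6 fits that left out a library, and 68 neighbours within 5 Mb had a median of 0.20. HSF1 is governed largely by its protein's state, which mRNA does not show. HSF2, a related factor that can pair with HSF1, averaged 8.38 FPKM in KO and 9.78 FPKM in WT with overlap (-0.19, 95% confidence interval -0.47 to 0.09, adjusted p = 0.233).

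**Figure D5:**
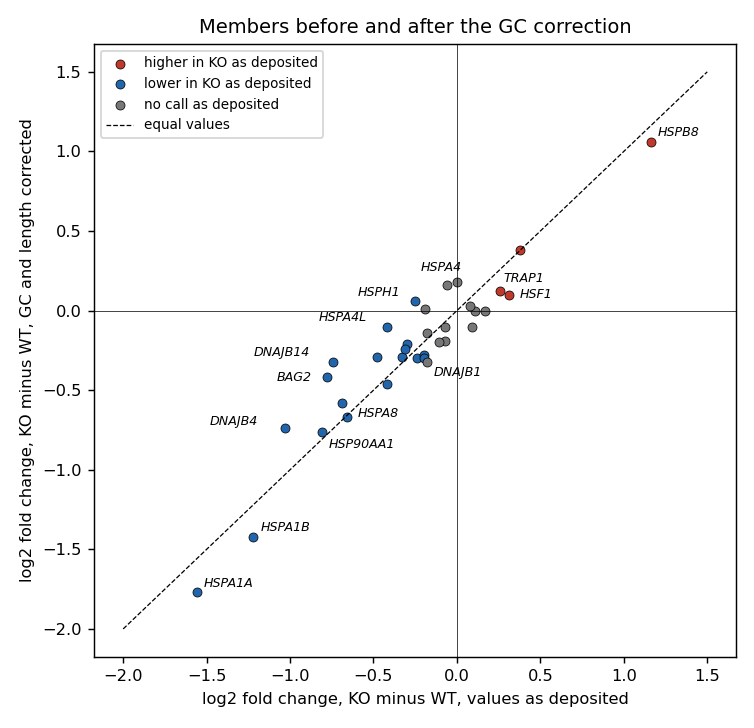
Log2 fold change (KO minus WT) of the 34 tested rows after correction for GC content and length (vertical) against the value as deposited (horizontal), with the dashed line of equality and colours by call as deposited. HSPA1A and HSPA1B lie below the line at -1.77 and -1.42, HSPH1 crosses zero to 0.06, and HSF1 and TRAP1 stand at 0.10 and 0.12.

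Other chaperone lists were described beside the members. Of 10 genes that HSF1 is known to induce outside the members, 3 fell (30%, near the 22.4% of all tested genes) and 2 rose (20%, near the 21.0% of all tested genes), with a median of -0.13. SERPINH1, the collagen chaperone HSP47, averaged 25.1 ± 1.02 FPKM in KO and 40.0 ± 0.60 FPKM in WT, CHORDC1, an HSP90 co-chaperone, 3.32 and 7.57 FPKM, and CACYBP 35.2 and 42.9 FPKM, all lower in KO. IER5, which acts on HSF1 itself, was higher, at 26.1 FPKM in KO and 18.9 FPKM in WT. Among 19 tested co-chaperones of HSP70 and HSP90, 4 fell (21.1%) and 2 rose (10.5%). CHORDC1, among these 4, and FKBP4 stand in both this list and the one above. DNAJC2, the ribosome partner of HSPA14, fell, at 3.35 FPKM in KO and 6.23 FPKM in WT. FKBP5 was lower at 3.78 and 5.47 FPKM, and UNC45A higher at 14.3 and 11.1 FPKM. The GC correction moved CHORDC1 to -0.63, CACYBP to -0.15, DNAJC2 to -0.47, FKBP5 to -0.26 and UNC45A to 0.19, all still called. The cytosolic chaperonin TRiC with prefoldin had 2 of 14 lower (14.3%; CCT6A and PFDN4) and none higher, and after the GC correction neither was called (adjusted p 0.0856 and 0.0727).

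Of 13 tested genes of mitochondrial protein quality control 2 fell (GRPEL2, an exchange factor of HSPA9, and DNAJC19) and 2 rose (HTRA2 and CLPB), 15.4% each way. Both shares lie under those of all tested genes, 22.4% lower and 21.0% higher. GRPEL2 averaged 6.62 FPKM in KO and 10.6 FPKM in WT, with a log2 fold change of -0.61, or -0.37 after the GC correction. The proteasome had 3 of 25 subunits lower, PSMD12 and PSMA3 among them, and 2 higher, PSMB3 and PSMB4, with a median of 0.04. Its shares of 12% lower and 8% higher also lie under those of all tested genes. After the GC correction none of these 4 proteasome genes was called, with adjusted p-values of 0.403 for PSMD12, 0.250 for PSMA3, 0.103 for PSMB3 and 0.0645 for PSMB4, nor was DNAJC19 (0.262) or CLPB (0.0637). Leaving out 1 library could end the calls of DNAJC19, CLPB, PSMA3, PSMB3 and PSMB4, with highest adjusted p-values of 0.0536, 0.114, 0.0918, 0.0853 and 0.102. The chaperones of the endoplasmic reticulum, which answer to other sensors, had 16 of 19 lower (84.2%) and none higher, with a median of -0.61. Among all tested genes 22.4% were lower. HSPA5 (BiP), the HSP70 of that compartment, averaged 232 ± 11.4 FPKM in KO and 593 ± 17.7 FPKM in WT, and HSP90B1, its HSP90, 160 ± 8.53 FPKM in KO and 381 ± 29.8 FPKM in WT. DNAJB11 and CRELD2 fell in the same test, with ratios of 0.521 and 0.406. Of 11 further heat shock factor, HSP70 and small heat shock genes 1 could be tested, and it was not called (by limma at an adjusted p under 0.05).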

How the data were processed

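RNA of 6 HT1080 libraries, 3 per genotype, was prepared with a SMARTER mRNA-Seq kit, per the labels' protocols. The authors deposited FPKM values for 58735 genes, scaled by gene length and library size; no source used here gives the aligner, the counter or its handling of strand and shared reads. GRCm38 and mm10, both of the mouse, are the builds in the submitters' processing notes, whereas identifiers and positions of 58735 of 58735 genes equal those of human GENCODE release 29 (GRCh38), which was used. Products of FPKM and length were whole reads within 0.02 for every value, which gave the read numbers.

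Genes with a mean of at least 1 FPKM (12000) were tested with limma 3.58.1 in R 4.3.3 (lmFit, eBayes with trend) on log2(FPKM + 1), 3 KO against 3 WT libraries, two-sided, with Benjamini-Hochberg adjustment over all of them and a threshold of 0.05. This scale understates changes of low genes. The GC and length correction removed a spline fitted per library to the deviations. Alternatives were a pseudocount of 0.1, no filter, a filter at 5 FPKM, quantile normalization, that correction, a replicate block, limma-voom on recovered reads and leaving out each library. The test was checked on simulated data. Ratios between genes were tested by exact permutation. All 39 members were named, and from each related list up to 4 called genes with the smallest adjusted p. The members and lists were chosen with earlier results of these data known. Promoters are RefSeq windows on GRCh38.p14, searched on both strands with Python 3.11.15.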

Additional observations from a re-analysis of the deposited data

How the results depend on the processing

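Of the 22 calls among the heat shock members, 15 remained under every alternative without a replicate block that tested them (HSPA12A, DNAJB4 and DNAJB14 lie under the filter at 5 FPKM), 16 without any 1 library and 18 after the GC and length correction, which ended those of HSF1, HSPA4L, HSPH1 and TRAP1. With the filter at 5 FPKM fewer genes were tested, and 1639 of all genes were higher and 1564 lower in KO. Members called higher numbered 2 to 5 when 1 library was left out, the fewest without WT replicate 1. Of all tested genes 1853 to 2657 were higher in these fits. The members' median was -0.25 after quantile normalization and -0.24 to -0.19 without 1 library. The related lists together had 8 genes higher, against 4 with no filter and 3 to 13 without 1 library. After the GC and length correction, with or without the block, the sign turned to 0.06 for HSPH1, 0.01 for HSF2, 0.16 for HSPA14 (ENSG00000187522), -0.00 for DNAJB5 and -0.10 for BAG3. HSPA4 was at -0.06 after quantile normalization and -0.09 to 0.09 without 1 library, and HSPA14 (ENSG00000187522) at -0.22 to 0.04. The cause was not tested.

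Same-numbered libraries did not deviate together (correlations -0.07, -0.18 and -0.35), so the numbers were not read as a pairing. With a replicate block 3 members were higher and 14 lower, and 3 genes of the related lists were higher. Of all tested genes 1900 were higher and 1966 lower with the block. With the block and the GC correction 2 members were higher and 15 lower, and of all tested genes 1994 and 2214. Reads limit the low members: HSPB1, DNAJA4 and CRYAB had at most 12 in a genotype.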

Other observations

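Annotated pseudogenes named by a member's symbol followed by P and a number took few reads beside their gene, except for HSPB1. Pseudogenes with other symbols were not counted. Among these, HSP90AA2P and HSP90AB3P averaged 2.86 and 2.78 FPKM over all libraries. They hold 7.97% of the 50-base stretches of HSP90AA1 and 13.8% of those of HSP90AB1, respectively. Those of HSPA8 had 64 reads in KO and 86 in WT over 3 libraries each, beside 135586 and 210750 reads for HSPA8 itself. Those of HSPD1 had 524 reads in KO and 554 in WT, beside 41638 and 46575 for the gene, and those of HSPE1 had 61 in KO and 99 in WT, beside 2311 and 3080. For HSPB1 the pseudogenes held 19 reads in KO and 8 in WT, against 12 in each genotype for the gene.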
